A study of Mus musculus with 6 samples.

Results

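The extracellular matrix of the heart holds, beside its collagens, a set of glycoproteins and proteoglycans that bind collagen, build elastic fibres, carry hyaluronan or anchor cells. Transcripts of 42 genes for such proteins were followed in mouse atria, out of 43432 genes in the deposited table. The 42 genes were taken by name, and each name matched a single gene. They fall into 7 groups by role: 8 small leucine-rich repeat proteins, 2 cartilage intermediate layer proteins, 5 thrombospondins, 6 matricellular proteins, 12 proteins of elastic fibres and microfibrils, 5 genes of the hyaluronan matrix and 4 basement membrane linkers and proteoglycans.

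RNA was sequenced from the atria of 3 mice on a high-fat diet (HFD) and of 3 mice on control chow. All 6 were wild-type mice of the strain labelled C57/Bl6J with no transgene or drug, their diet began at 6 weeks of age and lasted 10 weeks, and right and left atrial tissue was taken for RNA. The diet of each sample is labelled in conflicting ways, since its title, which fits the deposited column names, and its treatment entry name opposite diets in all 6 cases. Titles were followed, and every direction below would turn around if the treatment entries were right. No source here ties a sample to its animal beyond its number, so the spread given is that between 3 samples of a group.

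In the heart these proteins come mostly from fibroblasts, with part from endothelial, smooth muscle and mesothelial cells. Small leucine-rich repeat proteins bind collagen fibrils and set their spacing. Fibrillins, fibulins and microfibril-associated proteins form the scaffold on which elastin is laid down and on which latent TGF-β is stored. Hyaluronan is a large sugar polymer made at the cell surface by hyaluronan synthases and bound by the proteoglycans versican and aggrecan, which hold water in the tissue.

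Each value below is a normalized count, a read count divided by 1 size factor per library. Libraries held 15874251 to 28971508 reads on genes, with control mouse 2 the deepest, and 19.5% to 30.7% of the normalized counts lay on mitochondrial genes. A floor of 3 reads, for counting error only, corresponds to 2.05 to 3.41 normalized counts. The test was limma on log2(normalized count + 1), run on the 15275 genes whose mean over the 6 mice reached 10, with Benjamini-Hochberg adjustment over all of them. Log2 fold changes compare HFD with control atria, carry their standard error as SE, and come out too small for low genes because of the added 1. The defining atrial myocyte genes Nppa, Myl7, Myl4 and Sln were high in all 6 libraries. The sum of the 5 atrial myocyte markers was 285064 and 285797 in HFD mice 1 and 2, 518575 in HFD mouse 3 and 440112 to 480118 in the control mice. Because the tissue was sequenced in bulk, fewer cells of a type and less RNA per cell cannot be told apart.

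The promoters of 4 genes are shown because the results turn on them: Cilp2, Has1 and Ogn had the smallest adjusted p of the 42 genes, all under 0.1, and Cilp is the paralogue of Cilp2 with a difference of the opposite sign. Each window is a RefSeq sequence of GRCm38.p6, written 5′ to 3′ on the gene's own strand, from 250 bases before to 50 bases after the RefSeq start. Capitals mark matches, on either strand, to 5 motifs: TATA box (TATAAA), GC box (GGGCGG), AP-1 site (TGANTCA), TEAD site (GGAATG) and E-box (CACGTG).
Cilp2 promoter, chr8:69887343-69887642, minus strand: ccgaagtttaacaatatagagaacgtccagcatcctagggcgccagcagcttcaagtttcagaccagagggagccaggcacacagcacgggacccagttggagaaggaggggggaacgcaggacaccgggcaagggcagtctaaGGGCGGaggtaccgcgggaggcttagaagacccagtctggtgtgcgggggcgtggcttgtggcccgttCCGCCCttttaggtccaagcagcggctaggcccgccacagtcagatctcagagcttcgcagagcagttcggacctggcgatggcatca
Has1 promoter, chr17:17855139-17855438, minus strand: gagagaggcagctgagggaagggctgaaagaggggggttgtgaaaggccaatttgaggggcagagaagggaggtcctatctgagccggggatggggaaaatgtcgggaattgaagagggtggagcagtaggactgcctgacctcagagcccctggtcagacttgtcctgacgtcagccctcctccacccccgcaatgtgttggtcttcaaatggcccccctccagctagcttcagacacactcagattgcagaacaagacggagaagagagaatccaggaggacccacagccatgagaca
Ogn promoter, chr13:49607765-49608064, plus strand: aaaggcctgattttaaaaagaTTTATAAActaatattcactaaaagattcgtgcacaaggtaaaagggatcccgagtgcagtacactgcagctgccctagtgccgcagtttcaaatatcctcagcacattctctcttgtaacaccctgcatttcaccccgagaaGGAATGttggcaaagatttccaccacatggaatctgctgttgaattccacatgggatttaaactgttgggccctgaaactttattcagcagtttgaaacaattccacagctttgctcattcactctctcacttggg
Cilp promoter, chr9:65264930-65265229, plus strand: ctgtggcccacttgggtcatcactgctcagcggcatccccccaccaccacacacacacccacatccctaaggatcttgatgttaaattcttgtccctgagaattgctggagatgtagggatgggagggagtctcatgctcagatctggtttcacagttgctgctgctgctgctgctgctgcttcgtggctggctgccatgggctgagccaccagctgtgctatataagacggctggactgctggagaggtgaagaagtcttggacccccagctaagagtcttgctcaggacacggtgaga

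The Cilp2 window holds 2 GC boxes, and its GC content is 61.3%, against a median of 52.7% over all 32851 RefSeq mouse promoter windows. This window lies wholly inside the Cilp2 gene coordinates given below (chr8:69880369-69887687). The RefSeq start used for it is thus downstream of the gene start in those coordinates. In the Ogn window, with a GC content of 42.3%, are 2 TATA boxes that overlap on opposite strands, their first bases at -229 and -227 from the start, and 1 TEAD site at -86. The Has1 and Cilp windows, with GC contents of 57% and 55.7%, hold none of the 5 motifs as spelled here. The TATA box was searched as TATAAA alone, so the letters tatata in the Cilp window were not counted. A window was found for 30 of the 42 genes. A GC box was present for 18 of the 30 genes and in 35.7% of all windows, a TATA box for 6 and in 13.6%, a TEAD site for 5 and in 14.7%, an AP-1 site for 2 and in 7.8%, and an E-box for 1 and in 7.2%. These matches describe letters in the windows, and no binding was measured.

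Matrix transcripts were abundant in the atria of both diets. The 42 genes together made up 0.641% to 0.757% of the counts outside mitochondrial genes, and their sum ran from 89104 to 93168 normalized counts in HFD and from 88084 to 103762 in control atria. Decorin (Dcn), biglycan (Bgn), fibulin 1 (Fbln1), osteonectin (Sparc) and perlecan (Hspg2) held 58.2% to 62.3% of that sum. Per kb of exon the order was Dcn (3225 normalized counts per kb, mean of 6 mice), Fbln1 (2234), Sparc (2218), Bgn (1868) and Sparcl1 (1520). Fbln1 and Sparc, neighbours in that order, lay within the spread between mice. At the other end were Fbn2 (1.01), Hapln1 (0.717) and aggrecan (Acan, 0.698).

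A single gene of the 42, Cilp2, passed the adjusted threshold between the diets. That is 1 of 40 genes tested, where 0.746% of all genes tested passed. Acan and Hapln1 were under the mean of 10 and were not tested. At an unadjusted p under 0.05, 7 of the 40 were higher in HFD atria (6.66% of all genes tested) and 6 were lower (5.55% of all genes tested). The HFD values lay above all control values for 7 of the 40 genes (8.86% of all genes tested) and below them for 6 (9.17% of all genes tested). The median log2 fold change was 0.02 over the 40 genes, with 22 above and 18 below 0, and 0.00 over all genes tested. The differences at an unadjusted p under 0.05 thus ran in both directions, while the median lay near that of all genes. DESeq2 on the recovered reads called 6 of the 42 genes (3.34% of all genes it tested), namely Cilp2, Comp, Has1, Mfap5, Ogn and Vcan.

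**Figure D1:**
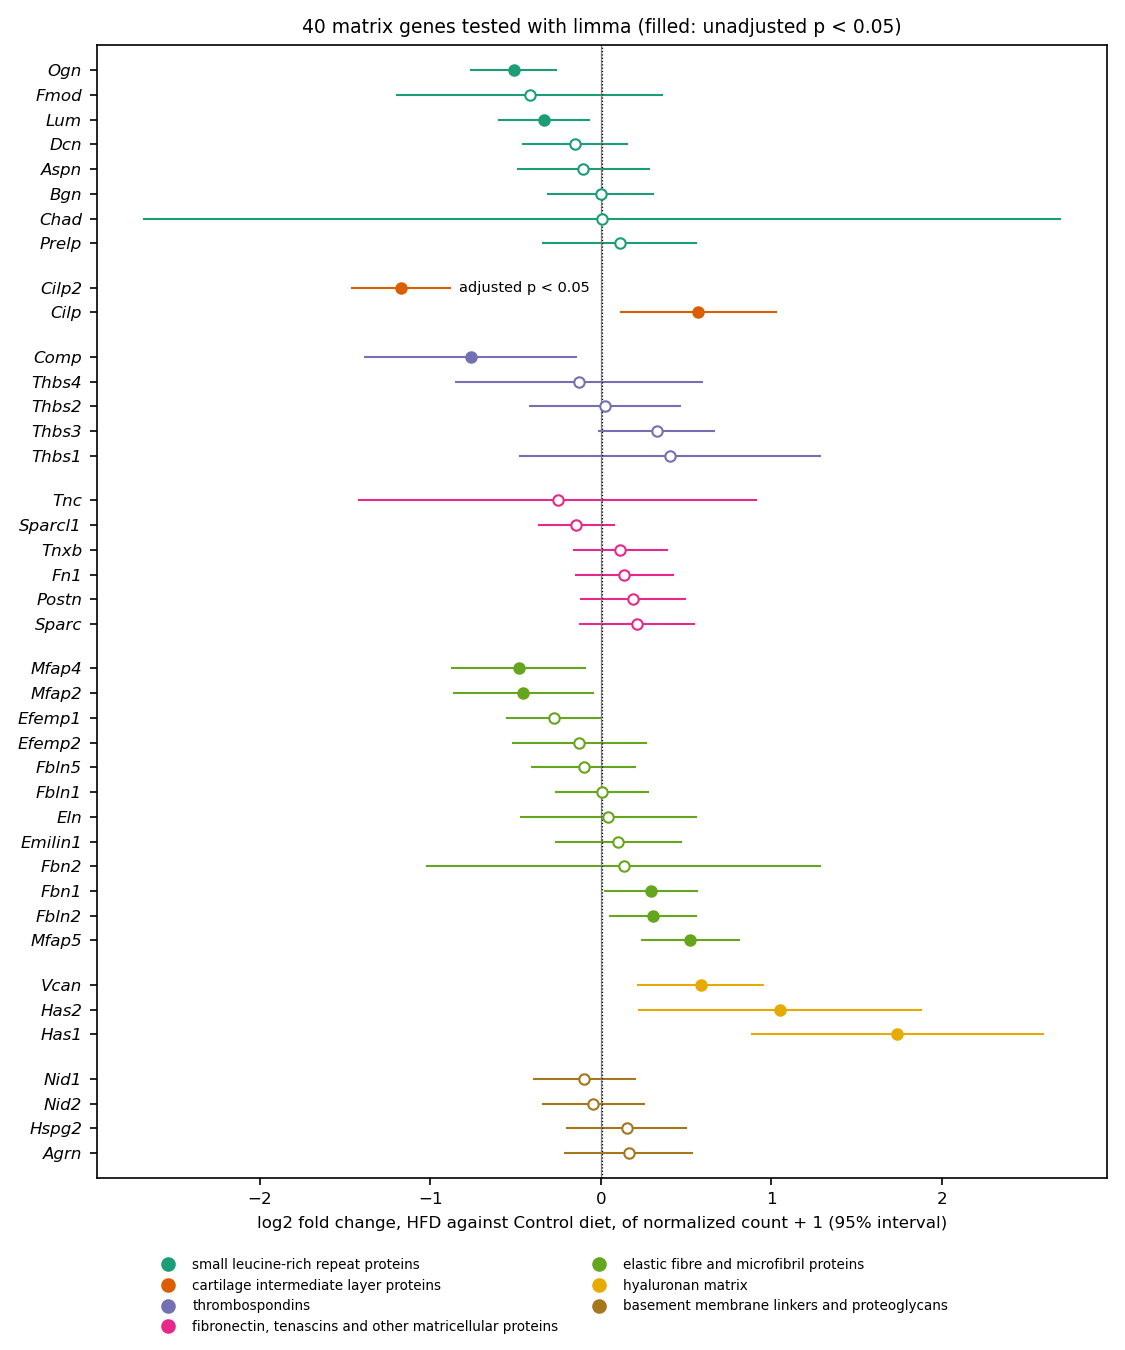
Log2 fold change, HFD against control diet, of the 40 matrix genes tested (x axis, of normalized count + 1, with 95% interval), grouped by role in colour, with filled points for an unadjusted p under 0.05 and a dotted line at the median of all genes tested. Cilp2 lies at -1.17 and is the only one past the adjusted threshold, while Has1 (1.74) and Has2 (1.05) lie farthest to the right.

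**Figure D2:**
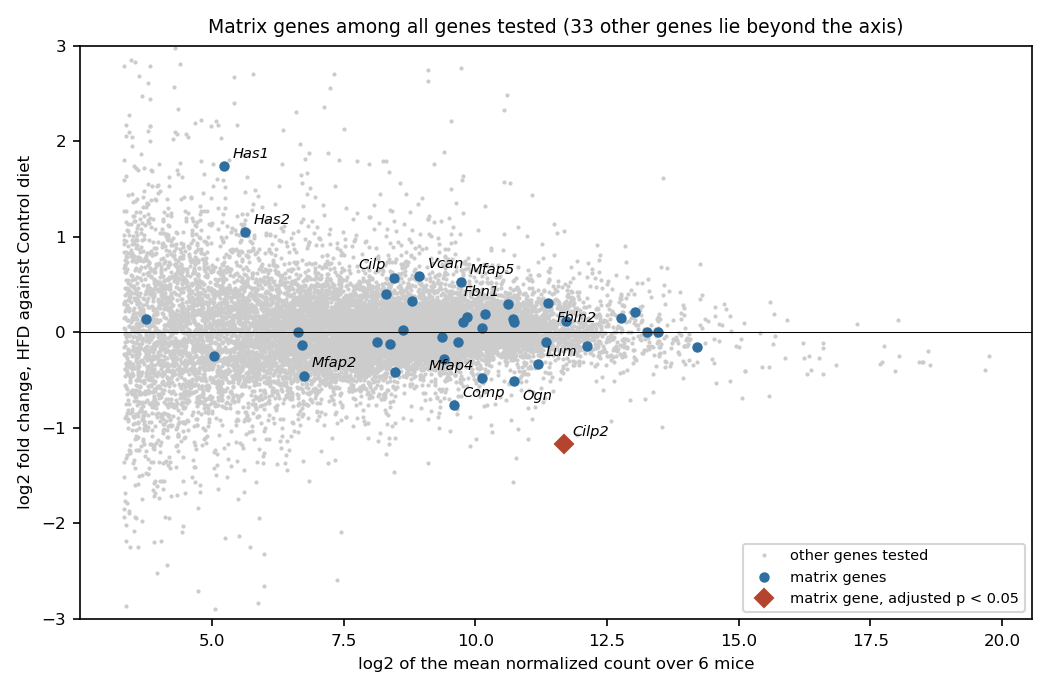
Mean normalized count over 6 mice (x axis, log2) against log2 fold change (y axis) for all genes tested in grey and the 40 matrix genes in colour, with 33 other genes beyond the limits of -3 and 3. The matrix genes scatter around 0 at all levels, and Cilp2 lies at the lower edge of the genes of its level.

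The cartilage intermediate layer proteins CILP and CILP2 are secreted glycoproteins first known from cartilage that are also made in heart and skeletal muscle. Cilp2 (ENSMUSG00000044006, GRCm38 chr8:69880369-69887687, minus strand) had 1725, 2245 and 2112 normalized counts in HFD mice 1 to 3 and 4657, 4967 and 4057 in control mice 1 to 3. Every HFD mouse lay below every control mouse. Its mean was 2027 ± 270.0 in HFD and 4560.4 ± 463 in control atria (SD, n = 3 each). The log2 fold change came to -1.17 (SE 0.13, 95% interval -1.47 to -0.88, limma adjusted p = 0.00608). It ranked 9 by p-value among the 15275 genes. A two-sided exact permutation test of this gene alone gave p = 0.1, and 20 assignments of 6 mice allow no smaller value. Fits without 1 mouse gave log2 fold changes of -1.26 to -1.06 and limma adjusted p values of 0.00343 to 0.0492, the highest of them without control mouse 2. It was not called when the variance was modelled without a trend (adjusted p = 0.123).

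Cilp (ENSMUSG00000042254, chr9:65265180-65280605) ran the other way: it had 433, 381 and 437 normalized counts in HFD and 358, 309 and 198 in control mice. The groups did not overlap, with a log2 fold change of 0.57 (SE 0.21, interval 0.11 to 1.03), but the adjusted p was 0.292 (limma). Control mouse 3 was the lowest of the 6, and without it the log2 fold change was 0.32. Per kb, Cilp2 was 3.93, 5.80 and 4.76 times as abundant as Cilp in HFD mice 1 to 3 and 12.8, 15.8 and 20.2 times in control mice 1 to 3. This ratio was chosen after the values were seen. It could not overlap between the diets, since all HFD values lay below the control values for Cilp2 and above them for Cilp. The ratio thus restates the differences of both genes, adds no evidence to them and does not show which gene changed.

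**Figure D3:**
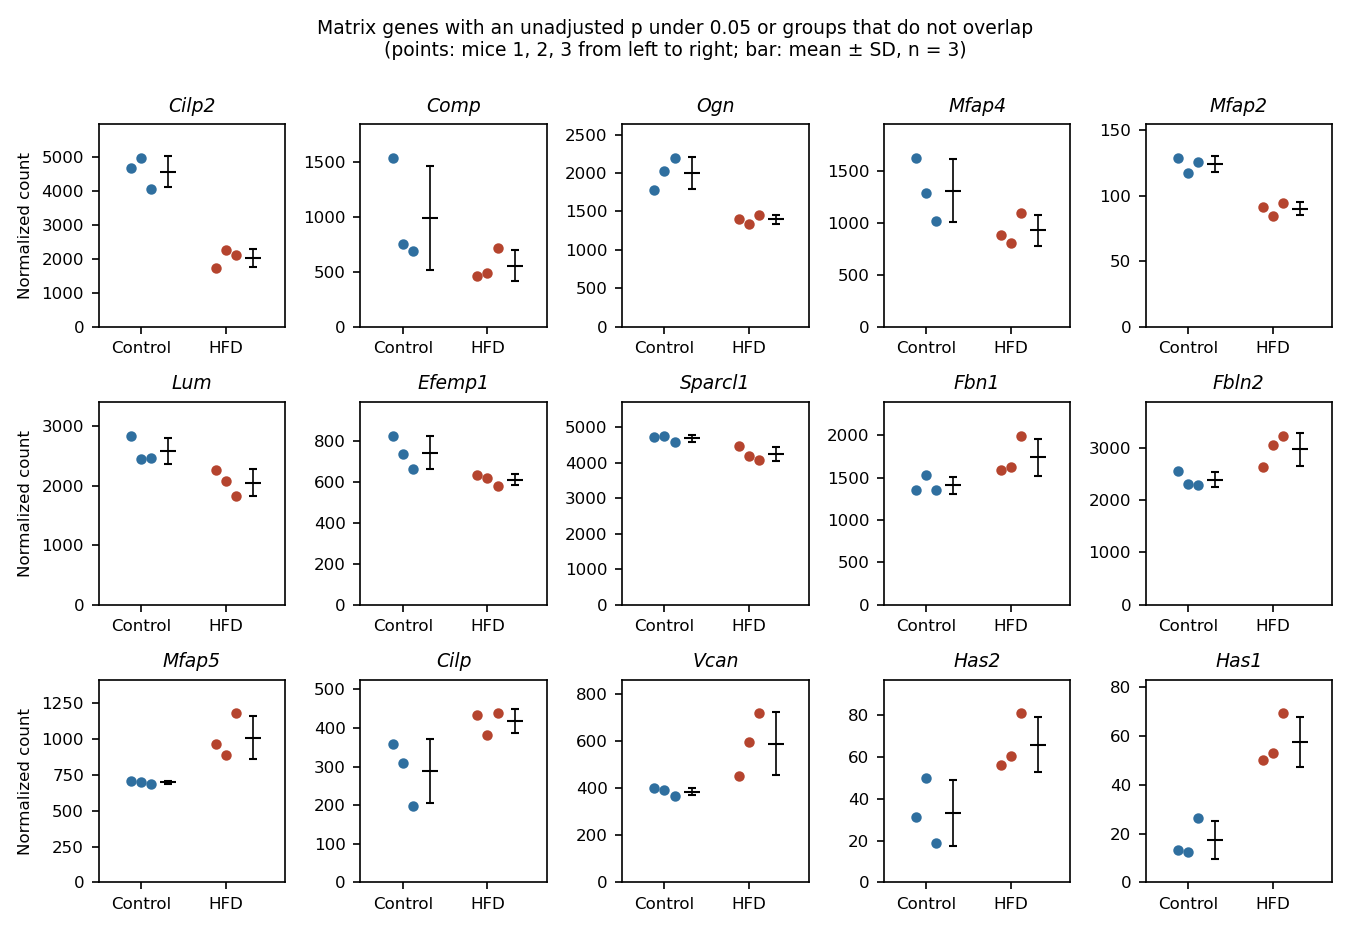
Normalized counts (y axis, from 0) of the 15 matrix genes with an unadjusted p under 0.05 or with groups that do not overlap, for control mice (left) and HFD mice (right), with each mouse as a point and the mean ± SD (n = 3) as a bar. Comp and Mfap4 are the 2 panels whose groups overlap.

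Of the 5 genes of the hyaluronan matrix, the 3 that could be tested were higher in HFD atria (50.8% of all genes tested). All 3 had an unadjusted p under 0.05 by limma (6.66% of all genes tested) and HFD values above all control values (8.86%). None passed the adjusted threshold in limma. Has1, a hyaluronan synthase, had 50.2, 53.0 and 69.3 normalized counts in HFD and 13.4, 12.3 and 26.2 in control mice. The lowest HFD mouse stood well above the highest control mouse, and the means, 57.5 ± 10.3 and 17.3 ± 7.73 (SD, n = 3 each), give a ratio of 3.32. The log2 fold change was 1.74 (SE 0.39, interval 0.88 to 2.60, limma adjusted p = 0.0772). Each of these values rests on few reads, and Has1 was among the genes DESeq2 called.

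Has2, the main hyaluronan synthase of the developing heart, had 56.3, 60.2 and 80.6 normalized counts in HFD and 31.4, 49.96 and 18.6 in control mice. Its groups did not overlap either, with a log2 fold change of 1.05 (SE 0.38, limma adjusted p = 0.285), and 4.3% of its exon bases lie opposite the antisense gene Has2os. Without control mouse 3, its lowest, the log2 fold change was 0.70. The third synthase gene, Has3, is not among the 42 and had the opposite sign, with 38.2, 44.9 and 17.0 in HFD and 39.2, 63.6 and 54.7 in control mice (log2 fold change -0.72, limma adjusted p = 0.521). Versican (Vcan), the hyaluronan-binding proteoglycan of loose connective tissue, had 454, 599 and 719 in HFD and 401, 391 and 368 in control mice. Its control mice lay close together and its HFD mice were spread, all above them, with a log2 fold change of 0.58 (SE 0.17, limma adjusted p = 0.161). Aggrecan (Acan), its cartilage relative, was at 0, 0 and 5.68 in HFD and 19.0, 0 and 6.56 in control mice. Hapln1, a link protein that fixes such proteoglycans to hyaluronan, was at 2.01, 5.10 and 3.41 in HFD and 10.1, 4.79 and 0 in control mice. Both were near or under the floor of 3 reads in several mice, and no difference was detectable at this depth. Per kb, Vcan was the most abundant of the group (33.8), ahead of Has2 (11.7) and Has1 (8.28).

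Small leucine-rich repeat proteins held the most abundant transcript of the set and showed their clearest differences in osteoglycin and lumican. Of the 8 genes, all tested, 2 were above and 6 below 0 (median log2 fold change -0.13). An unadjusted p under 0.05 was found for 2, both lower in HFD (5.55% of all genes tested). Osteoglycin (Ogn), which regulates collagen fibril growth, had 1406, 1335 and 1450.5 normalized counts in HFD and 1781, 2021 and 2197 in control mice. All HFD mice lay below all control mice, with a log2 fold change of -0.51 (SE 0.12, interval -0.77 to -0.26), yet the adjusted p was 0.0797 (limma). Lumican (Lum), also a fibril regulator, had 2264, 2076 and 1823 in HFD and 2844, 2457 and 2462 in control mice. Here too the groups did not overlap, with a log2 fold change of -0.33 (SE 0.12, limma adjusted p = 0.291).

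Decorin (Dcn), which coats collagen fibrils and binds TGF-β, had 19959, 18613 and 15108 normalized counts in HFD and 21348, 18741 and 19212 in control mice. Its groups overlapped, and the interval of its log2 fold change, -0.46 to 0.16, leaves out a change of 1 in either direction. Biglycan (Bgn), its close relative, had 11429, 10838 and 11723 in HFD and 13835, 10668 and 9847 in control mice, an interval of -0.31 to 0.31. Asporin (Aspn), with 252 to 288 in HFD and 236 to 361 in control mice, overlapped as well. Fibromodulin (Fmod), PRELP (Prelp) and chondroadherin (Chad) shared 1 feature: control mouse 1 was the highest of the 6. Fmod had 232, 298 and 320.3 in HFD and 739, 322 and 222 in control mice, and Prelp 1531, 1829.6 and 1825 against 2343, 1348 and 1288. Chad had 18.1, 86.7 and 37.5 in HFD and 429, 21.9 and 5.47 in control mice. For Chad, control mouse 1 was 19.6 times the median of the other mice and control mouse 3 the lowest, so its interval of -2.69 to 2.70 covers large changes both ways.

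Thrombospondins, secreted multimeric glycoproteins that bind calcium, cells and other matrix proteins, were split, with 3 of 5 above 0. Of the 5 genes 1, Comp, had an unadjusted p under 0.05 and was lower in HFD (5.55% of all genes tested). Cartilage oligomeric matrix protein (Comp), the most abundant of the group per kb (262), had 460.1, 493 and 720.1 normalized counts in HFD and 1539.5, 756 and 689 in control mice. The groups overlapped through HFD mouse 3, and control mouse 1 stood far above the rest. Its log2 fold change was -0.76 (SE 0.28, limma adjusted p = 0.301), and -0.40 without control mouse 1. Thrombospondin 1 (Thbs1), an activator of latent TGF-β, had 197, 316 and 576 in HFD and 432, 218 and 164 in control mice, ranges that overlapped, with HFD mouse 3 the highest. Thbs3 had 507, 549.7 and 426 in HFD against 438, 409 and 336 in control mice, a log2 fold change of 0.33 with an interval of -0.01 to 0.67, and 6.59% of its exon bases lie opposite Mtx1. Thbs2 (279 to 493 in HFD, 353 to 408 in control mice) and Thbs4 (74.4 to 121 and 63.4 to 161) overlapped fully.

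**Figure D4:**
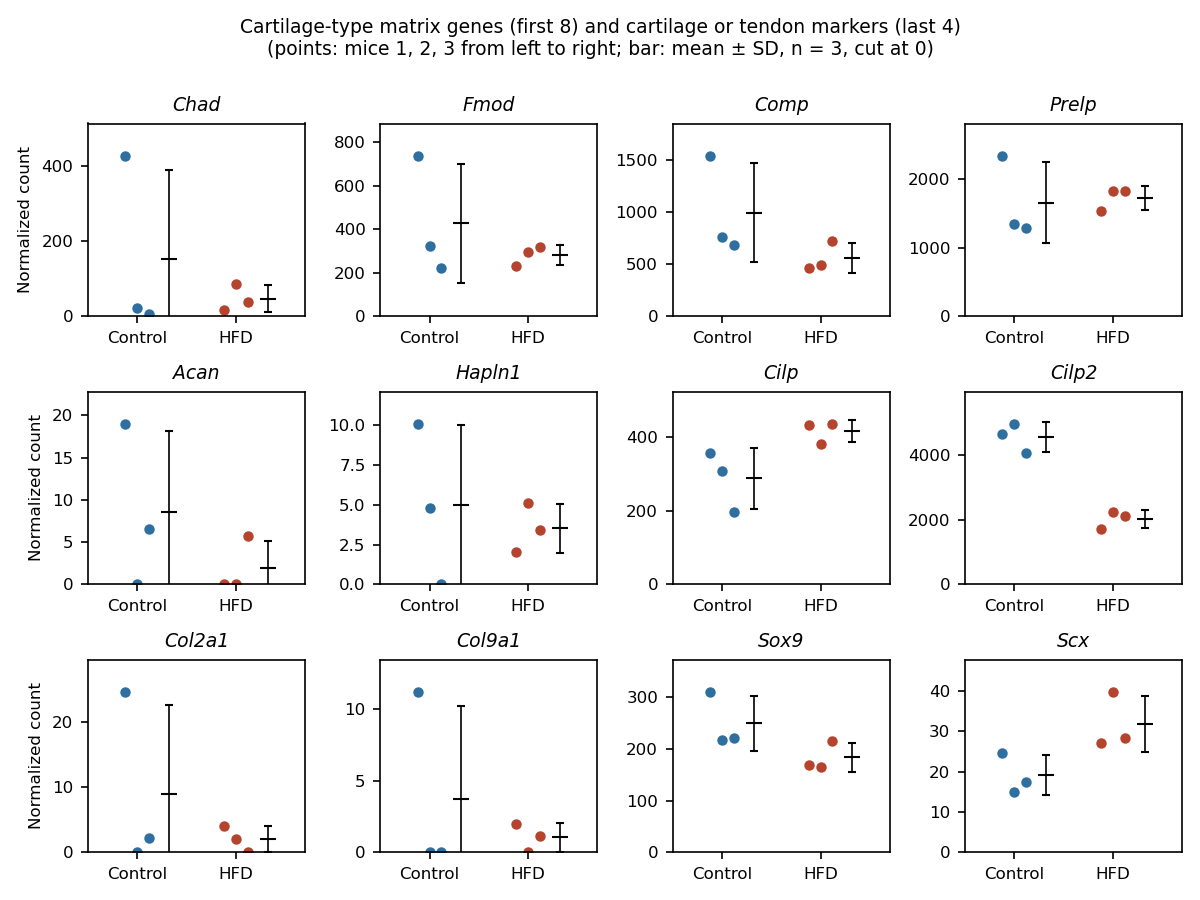
Normalized counts (y axis, from 0) of 8 matrix genes known from cartilage and of the cartilage or tendon markers Col2a1, Col9a1, Sox9 and Scx, for control mice (left) and HFD mice (right), with each mouse as a point and the mean ± SD (n = 3, cut at 0) as a bar. Control mouse 1, the leftmost point of each panel, is the highest in Chad, Fmod, Comp, Prelp, Acan, Hapln1, Col2a1, Col9a1 and Sox9 but not in Cilp, Cilp2 or Scx.

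Control mouse 1 had the highest value in 6 of the 8 matrix genes plotted as cartilage-type. These 8 genes were picked for the plot and are not one of the lists used elsewhere. Of the 6, Acan and Hapln1 had means under 10. Control mouse 1 was also the highest in 3 of the 9 cartilage and tendon markers, of which Col2a1 and Col9a1 had means under 10. Among these markers, Col2a1 was at 24.6 in control mouse 1 and at most 4.02 elsewhere, Col9a1 at 11.2 and at most 2.01, and Sox9 at 311 and at most 221. It was not the highest in the other 6 markers: Col11a2 was at 105 in control mouse 1 and at 189.7 in HFD mouse 2, Col11a1 at 10.1 and at 11.4 in HFD mouse 3, and Scx highest in HFD mouse 2. Tnmd, Mkx and Matn3 were at or near 0 in all libraries. Of the 9 markers 3 could be tested, 2 of them higher in HFD, and their sum ran from 352 to 406 in HFD and from 331 to 489 in control mice. Across the 42 matrix genes control mouse 1 was the highest of the 6 for 16 genes and the lowest for 0, while control mouse 3 was the highest for 1 and the lowest for 17. Over all genes tested these mice were the highest for 15.5% and 14.9% and the lowest for 16.7% and 15.4%. HFD mouse 3 was the highest for 13 matrix genes (31.0%, against 20.3% of all genes tested), and HFD mouse 1 the lowest for 11 (26.2%, against 14.3%). Cilp2 was highest in control mouse 2 and lowest in HFD mouse 1, and its log2 fold change was -1.16 without control mouse 1. Without that mouse 11 of the 40 genes had an unadjusted p under 0.05, against 13 with it, while the share of all genes tested was 9.71% without it and 12.2% with it.

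**Figure D5:**
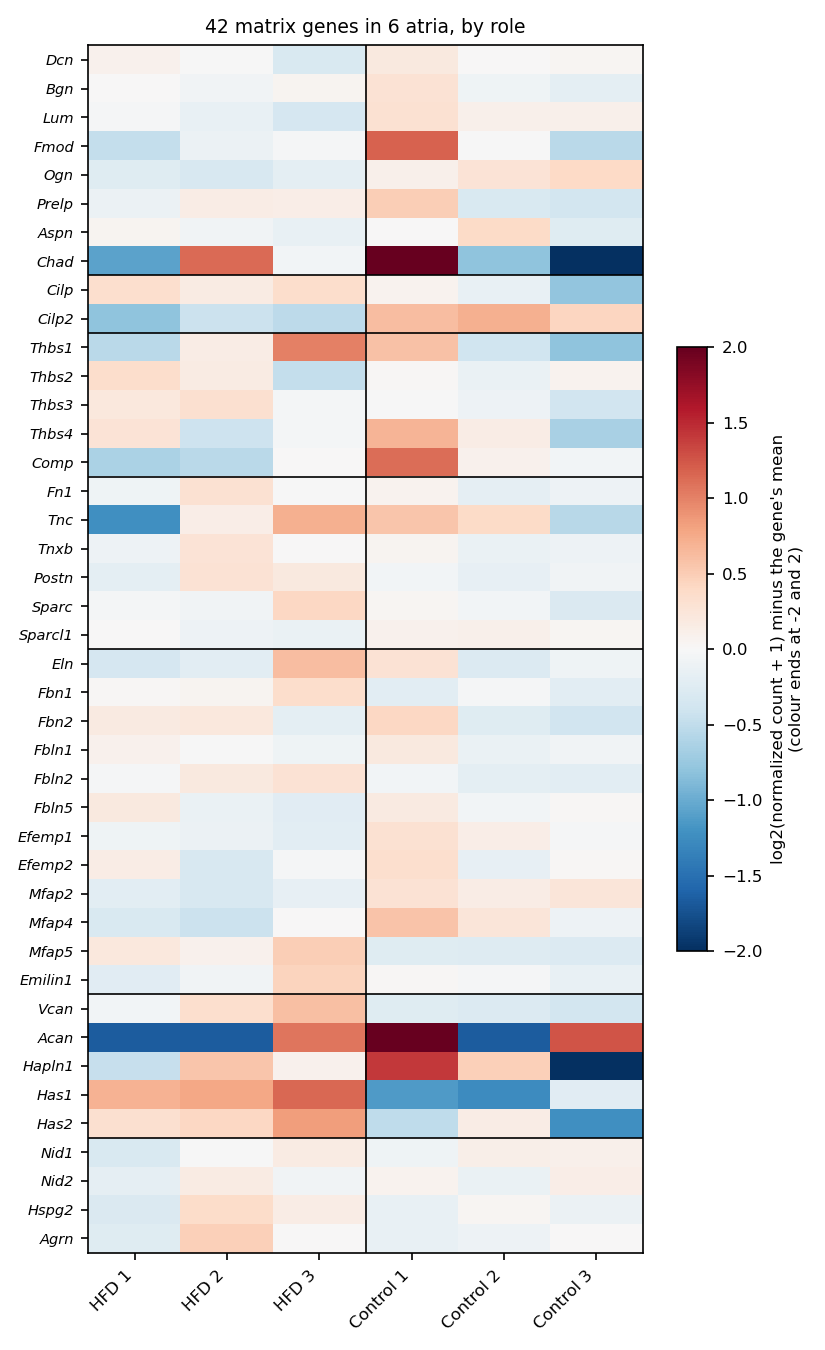
Log2(normalized count + 1) minus the gene's mean over 6 mice (colour, ending at -2 and 2) for the 42 matrix genes (rows, by role) in the 3 HFD and 3 control mice (columns). Cilp2 and Ogn are blue in the 3 HFD mice and red in the 3 control mice, Has1 is the reverse, and for Chad, Fmod and Comp the darkest red cell is control mouse 1.

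Of the 12 elastic fibre and microfibril genes, all tested, 7 were above and 5 below 0 (median log2 fold change 0.02). At an unadjusted p under 0.05, 3 were higher (6.66% of all genes tested) and 2 lower (5.55% of all genes tested). Mfap5, a microfibril-associated protein, had 965, 886 and 1177 normalized counts in HFD and 705, 696 and 688 in control mice. The control mice lay within a narrow band and all HFD mice above it, with a log2 fold change of 0.52 (SE 0.13, limma adjusted p = 0.105). Mfap2, another protein of the same microfibrils, had 91.4, 84.6 and 94.3 in HFD and 129, 117 and 126 in control mice. Again the groups did not overlap, now with HFD below, and the log2 fold change was -0.45 (SE 0.19, limma adjusted p = 0.362). Per kb, Mfap5 was 3.56, 3.53 and 4.21 times as abundant as Mfap2 in HFD mice and 1.85, 2.01 and 1.85 times in control mice. This ratio was also chosen after the values were seen. Its separation follows from that of each gene and adds no evidence.

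Mfap4, which binds elastin and collagen, had 888, 811 and 1097 normalized counts in HFD and 1630.2, 1296 and 1019 in control mice. Control mouse 3 lay below HFD mouse 3, and the log2 fold change was -0.48 (SE 0.18, limma adjusted p = 0.304), or -0.31 without control mouse 1. Fibulin 2 (Fbln2), which links fibrillin to other matrix proteins, had 2623, 3043 and 3228 in HFD and 2562, 2313 and 2293 in control mice, with no overlap and a log2 fold change of 0.31 (limma adjusted p = 0.318). Fibrillin 1 (Fbn1), the main component of microfibrils, had 1594, 1623 and 1995 in HFD and 1354, 1528 and 1353 in control mice. Its log2 fold change was 0.29 (limma adjusted p = 0.373), or 0.19 without HFD mouse 3, and 20.1% of its exon bases lie opposite Gm9913, which had a mean of 7.45. Efemp1, a fibulin, had 629.9, 619 and 578 in HFD and 824, 737 and 661 in control mice, so the groups stood apart, but its interval of -0.56 to 0.00 reached 0.

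Elastin (Eln), the rubber-like core of the fibre, had 864, 943 and 1671 normalized counts in HFD and 1330.2, 903 and 1034 in control mice, and HFD mouse 3 was the highest of the 6. Fibulin 1 (Fbln1), the most abundant of the group per kb, had 10379, 9693 and 9193 in HFD and 11121, 8902 and 9265 in control mice, an interval of -0.27 to 0.28. Among the rest, Fbln5 (694 to 929 in HFD, 783 to 913 in control mice), Efemp2 (265 to 367 and 294 to 419), Emilin1 (742 to 1181 and 777 to 882) and the fetal fibrillin Fbn2 (11.4 to 15.3 and 9.84 to 17.9) overlapped between the diets. Fibulin 5 and EFEMP2 take part in laying elastin onto microfibrils, and EMILIN1 lies at the interface of elastin and microfibrils.

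Of the 6 matricellular genes 4 were above 0, and 0 had an unadjusted p under 0.05 by limma, edgeR or DESeq2 (12.2%, 12.2% and 11.3% of all genes tested). Osteonectin (Sparc), a collagen-binding protein of remodelling matrix and the most abundant of the group per kb, had 8121, 7895 and 11125 normalized counts in HFD and 8515, 7966 and 6792 in control mice. HFD mouse 3 stood apart, and the interval was -0.13 to 0.55. Its relative Sparcl1 had 4472, 4175 and 4086 in HFD and 4717, 4759 and 4581 in control mice, groups that did not overlap with a log2 fold change of only -0.14 (limma adjusted p = 0.627). Fibronectin (Fn1), the cell-binding scaffold protein, had 1580.2 to 2063 in HFD and 1482 to 1761 in control mice, and periostin (Postn), a marker of activated fibroblasts, 997 to 1399 and 1022 to 1105. Tenascin X (Tnxb) had 3118 to 4054 and 3061 to 3503, and tenascin C (Tnc), usually low outside injury and development, 12.1 to 48.8 and 19.7 to 43.7.

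Among the 4 basement membrane linkers and proteoglycans 2 were above 0. Again 0 had an unadjusted p under 0.05 by limma, edgeR or DESeq2 (12.2%, 12.2% and 11.3% of all genes tested). Perlecan (Hspg2), the heparan sulfate proteoglycan of basement membranes and the most abundant of the group per kb (486), had 5656, 8868 and 7584 normalized counts in HFD and 6224, 7081 and 6314 in control mice. HFD mouse 1 was the lowest and HFD mouse 2 the highest, so the control mice lay inside the HFD range. The laminin-binding nidogens Nid1 (2089 to 2894 in HFD, 2445 to 2818 in control mice) and Nid2 (584 to 740.4 and 597 to 724) and the heparan sulfate proteoglycan agrin (Agrn, 760.5 to 1259 and 814 to 901) overlapped too. Of the 27 genes tested without an unadjusted p under 0.05, 22 had a 95% interval that left out a log2 fold change of 1 in either direction.

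Genes that make, cut or bind these proteins were read from 6 lists. In hyaluronan turnover, Lyve1, the hyaluronan receptor of lymphatic endothelium and some macrophages, rose: it had 1575, 1839.8 and 1480.0 normalized counts in HFD and 966, 893 and 794 in control mice, a log2 fold change of 0.88 (SE 0.13, limma adjusted p = 0.0172). It was 1 of 7 tested of 10 genes, 5 above 0, and the receptor Cd44 came next (0.56, limma adjusted p = 0.124). Of 11 genes of elastic fibre assembly and latent TGF-β binding, 10 were tested, 7 above 0. Lox, which cross-links elastin and collagen, rose from 122, 120.5 and 131 in control mice to 260.2, 245 and 232 in HFD mice, a log2 fold change of 0.97 (SE 0.16, limma adjusted p = 0.0252).

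In the other 4 lists 0 genes passed the adjusted threshold in limma or edgeR, while DESeq2 called Chst3, Itgb3, Cd36, Adamts1, Srpx and Smoc2. Glycosaminoglycan chain synthesis had 24 of 26 genes tested, 14 above and 10 below 0, and its smallest p-values were those of Chst3, a chondroitin 6-sulfotransferase (log2 fold change 1.597, limma adjusted p = 0.105), and of Ugdh, which makes the UDP-glucuronate used for hyaluronan (0.31, adjusted p = 0.323). Among 14 matrix receptors, all tested and 11 above 0, integrin β3 (Itgb3) was at 1.34 and the thrombospondin receptor Cd36 at 0.72 (limma adjusted p = 0.0582 and 0.0686). The proteoglycan-cleaving ADAMTS proteases had 7 of 8 genes tested, 5 above 0, led by Adamts1 (0.81) and Adamts4 (1.76), with limma adjusted p = 0.143 and 0.212. Other matrix glycoproteins had 28 of 31 genes tested, 13 above and 15 below 0, led by Srpx (0.98) and the calcium-binding Smoc2 (-0.51), with limma adjusted p = 0.0741 and 0.0989. Over all genes tested 50.8% were above 0.

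Of the markers of cells that make matrix, all 10 of fibroblasts were tested. Among these 6 were above 0. An unadjusted p under 0.05 was found for 0 by limma or edgeR (12.2% of all genes tested by each) and for 1 by DESeq2 (11.3%). Their sum, mostly Gsn, ran from 95328 to 103672 in HFD and from 105126 to 128296 in control mice, without overlap. Of the 10 markers 1, Gsn, had groups that did not overlap (18.0% of all genes tested), with a log2 fold change of -0.27. The sum of 5 myofibroblast markers, 4 tested, was 4051 to 5357 in HFD and 2378 to 4671 in control mice. Of the 4 tested, 3 were above 0 and Fap lay at -0.25, and 0 had groups apart (18.0% of all genes tested). Cthrc1, which was not tested, had 6.03, 8.16 and 14.8 in HFD and 3.36, 0.684 and 5.47 in control mice, low counts that did not overlap. The 6 endothelial markers summed to 16084 to 16937 in HFD and 13878 to 14248 in control mice, without overlap. Of these 5 were above 0 (50.8% of all genes tested), and 2, Pecam1 and Tie1, had groups apart (18.0%). Pecam1, with means of 5917 in HFD and 3989 in control mice, lay at 0.57 (limma adjusted p = 0.0504). Cdh5 (0.04), Kdr (0.14) and Emcn (0.13) overlapped, as did Egfl7 (-0.19). Smooth muscle markers (5, with 4 above 0) summed to 7304 to 8748 and 6352 to 8805, pericyte markers (4, with 1 above 0) to 7311 to 8318 and 7289 to 7993, and mesothelial markers (6, with 3 above 0) to 1429 to 2255 and 1428 to 2191.

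Of the 6 macrophage markers, 5 were above 0 (50.8% of all genes tested), and 3 had groups apart (18.0%). The adjusted threshold was passed by 2 (0.746% of all genes tested), Itgam and Cd163 (log2 fold changes 1.18 and 0.95, limma adjusted p = 0.0106 and 0.031). Csf1r, the highest of the 6 by mean, lay at -0.01 with means of 1891 in HFD and 1907 in control mice. Adgre1 (0.23) and C1qa (0.40) overlapped between the diets. The sum of the 6 was 5294 to 5693 in HFD and 3746 to 4789 in control mice, without overlap. The 6 adipocyte markers, 5 above 0, summed to 1257 to 3718 in HFD and 568 to 2747 in control mice, highest in HFD mouse 1 and control mouse 1. The 4 Schwann cell markers were all below 0 and summed to 435 to 663 and 623 to 787. The 5 ventricular myocyte markers, 1 above 0, summed to 6921 to 9918 in HFD and 7958 to 17448 in control mice, highest in control mouse 2. Of the 5 atrial myocyte markers 1 was above 0. The part of these cell types in the differences of the matrix genes was not tested.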

How the data were processed

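Atrial RNA of 3 HFD and 3 control diet mice was sequenced with a directional kit. The authors aligned reads with STAR to GRCm38 and quantified Ensembl genes with Salmon. The deposited signal is a read count divided by 1 DESeq2 size factor per sample. In every library 100% of values were whole multiples of the value of 1 read (tolerance 0.01), so reads were recovered. The table also holds the authors' own fold changes, standard errors, test statistics and p-values, which were not used. One row without a gene held only zeros.

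Groups followed the sample titles. Values were compared with limma 3.58.1 (R 4.3.3; lmFit, eBayes with variance trend) on log2(normalized count + 1), keeping genes whose mean reached 10, with all 6 samples, no covariate, Benjamini-Hochberg adjustment, threshold 0.05. The test was checked on simulated data whose variance followed the mean and whose changes were placed only in genes of higher counts. This check thus does not cover changes in low genes or the dependence on the variance trend. Alternatives included edgeR 4.0.16 and DESeq2 1.42.0 on recovered reads. GENCODE M21 gave names to 97.8% of genes, coordinates and exon lengths. No source states whether counting used strand, which leaves overlapping genes of opposite strands uncertain. Beside the genes marked above, this covers among others Nid2 (8.45% of its exon bases opposite Rtraf, mean 1333). It also covers Mfap4 (4.63% opposite Mapk7, mean 250) and Efemp2 (4.57% opposite Mus81, mean 426).

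The 42 genes and the other lists were chosen with earlier results of these data known. Named in full were genes past the adjusted threshold, those with an unadjusted p under 0.05 or groups apart, the most abundant gene per kb of each role, and in each list the genes past the adjusted threshold or otherwise the 2 with the smallest p. The ratios of Cilp2 to Cilp and of Mfap5 to Mfap2 were chosen after the values were seen, and their separation between the diets is not separate evidence. The result of 1 further list is not reported here.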

Additional observations from a re-analysis of the deposited data

How the results depend on the processing

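Of the 15 matrix genes with an unadjusted p under 0.05 or groups apart, each refitted under 15 alternatives, 0 changed direction. The 1 loss was Cilp2 without a variance trend (adjusted p = 0.123), and 5 genes passed the adjusted threshold with DESeq2 alone: Ogn (0.00599), Has1 (0.00869), Mfap5 (0.0189), Vcan (0.0429) and Comp (0.0476), so DESeq2 called 6 matrix genes with Cilp2. Among all genes, 114 were called by limma with its variance trend, 0 without it (1717 at an unadjusted p under 0.05), 87 by edgeR, 470 by DESeq2 and 69 when an absolute log2 fold change above 1 was also asked. Leaving out each mouse in turn gave 14 genes (without control mouse 2) to 318 (without HFD mouse 3), with 24 without HFD mouse 2, 19 without control mouse 3, 48 without control mouse 1 and 50 without HFD mouse 1, and 1 matrix gene, Cilp2, each time. Without a variance trend 0 matrix genes were called and 7 had an unadjusted p under 0.05, against 13 with it. That count was 9 to 12 with each mouse left out, 14 by edgeR and 12 by DESeq2. The share of all genes tested at an unadjusted p under 0.05 was 11.2% without the trend and 12.2% with it. It was 8.15% to 14.5% with each mouse left out, 12.2% by edgeR and 11.3% by DESeq2. The causes were not tested. DESeq2 called 3.34% of the genes it gave an adjusted p, so the 6 matrix genes are to be read against that share. Deviations of same-numbered mice from their group means correlated at 0.116, -0.027 and -0.0039, and HFD mouse 2 correlated best with control mouse 3 (0.160). With 3 mice a group these values cannot settle whether the replicate numbers pair the mice. With the replicate number as a block, 157 genes and 1 matrix gene were called, and 11 matrix genes had an unadjusted p under 0.05 (11.2% of all genes tested). No scaling moved the median log2 fold change of all genes by more than 0.02.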
